A study of Mus musculus with 2 samples.

Results

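*Rgs5*, *Kcnj8*, *Abcc9*, *Notch3*, *Cspg4*, *Mcam* and *Ren1* are 7 genes that mark mural cells, the pericytes and vascular smooth muscle cells that lie against the wall of blood vessels, or the renin-producing cells that are related to them. They were chosen by name as mural cell genes after it was known that *Rgs5* was lower and *Ren1* higher in XY somatic cells after 72 h with MEKi, and each symbol was matched to 1 of the 42422 gene identifiers of the somatic count table. All 7 genes were among the 15125 genes that passed the filter on low counts. Since the difference between MEKi and DMSO at 72 h chose the genes, it is given here as a description with no test.

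The RNA came from somatic cells of E12.5 mouse gonads, from Swiss females mated with males carrying Oct4(Pou5fl)-eGFP on a 129svJT2 background, with a wild-type genotype otherwise. Gonads were collected with the mesonephros attached, which was removed after culture, and GFP-negative cells were sorted so that germ cells, which carry the reporter, were left out. There were 10 groups of 4 libraries. Uncultured XX and XY cells (0 h) made up the first pair, and XX and XY gonads cultured with the vehicle DMSO for 24 h and for 72 h made up a further 4 groups. XY gonads cultured for 24 h or 72 h with 500 nM of the FGF receptor inhibitor BGJ398 (FGFRi) or the MEK1/2 inhibitor PD0325901 (MEKi) made up the other 4, and no XX gonads were given an inhibitor. Each library held cells pooled from several gonads, so no value below belongs to a single embryo.

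Pericytes and vascular smooth muscle cells surround endothelial tubes and are recruited by platelet-derived growth factor from the endothelium, which acts on the receptor *Pdgfrb*. *Notch3* is the Notch receptor typical of mural cells and is activated by ligands on neighbouring endothelial cells, such as Jag1 and Dll4. Renin, the product of *Ren1*, cuts angiotensinogen as the first step of the renin-angiotensin system. In the adult it comes from juxtaglomerular cells of the kidney, while in the embryo it is made more widely along developing vessels and also in the gonad and adrenal. The XY gonad gains a characteristic artery and a dense vessel network as it becomes a testis, which the XX gonad does not form at this stage.

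Values are CPM, counts scaled to a common library size with TMM factors, and are compared between groups for 1 gene at a time, never between genes. Total counts ran from 1380707 to 4836550 per library, with a median of 2248854, so that 1 count was worth between 0.192 and 0.775 CPM, and members at a few CPM rest on a handful of counts. The libraries were made in 2 sets, one with all uncultured, 24 h DMSO and 24 h MEKi groups and the other with the 24 h FGFRi group and all 72 h groups. The difference between 24 h and 72 h, and between FGFRi and DMSO at 24 h, therefore cannot be told apart from the set. The sorted cells were gonadal, with 607 to 1864 summed CPM of *Gata4*, *Wt1*, *Nr5a1*, *Lhx9* and *Emx2* in every library. Several genes that define pericytes in other organs were at or near 0: *Higd1b* reached a group mean of 0.517 CPM at most, *Vtn* 1.15 CPM, *Foxf2* 0.582 CPM and *Atp13a5* 0.214 CPM. The 7 genes are therefore called by their names here, and which cells of the sorted pool made their transcripts was not tested.

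A differentially expressed gene (DEG) had a false discovery rate (FDR) below 0.05 by the Benjamini-Hochberg method over all 15125 genes in the quasi-likelihood test of edgeR, and a fold change of at least 1.5. With MEKi at 24 h, 6 of the 7 members were DEGs, 1 higher (*Ren1*) and 5 lower (*Rgs5*, *Kcnj8*, *Abcc9*, *Cspg4* and *Mcam*), where 3.27% of all genes were DEGs. The count for MEKi was 4 to 5 with any 1 library left out (359 to 581 of all genes). By the DESeq2 test it was 4 (460 of all genes). With FGFRi at 72 h, 3 were DEGs and all were lower (*Rgs5*, *Cspg4* and *Notch3*), against 1.8% of all genes. Without FGFRi replicate M5 or without DMSO replicate M2 the count for FGFRi was 0. Between XX and XY cells, 4 were DEGs before culture (*Rgs5* higher in XX, *Cspg4*, *Mcam* and *Ren1* lower), where 17.3% of all genes were. After 24 h with DMSO, 6 were DEGs, each lower in XX (all but *Rgs5*), where 19.6% of all genes were. After 72 h with DMSO, 3 were DEGs, each lower in XX (*Cspg4*, *Notch3* and *Mcam*), where 20.3% of all genes were. The XY libraries of that comparison also entered the contrast that chose the genes. Over the first day of culture 4 rose in XY cells (*Kcnj8*, *Abcc9*, *Notch3* and *Cspg4*), where 14.4% of all genes were DEGs. In XX cells 2 rose (*Kcnj8* and *Abcc9*) and 1 fell (*Rgs5*), where 7.73% of all genes were DEGs. The change over that day differed between XX and XY cells for *Rgs5* alone among the members, where it did for 6.2% of all genes. The voom and treat test from limma, which asks whether a change is larger than 1.5-fold, called 3 members with MEKi at 24 h (88 of all genes). With FGFRi at 72 h it called 0 members and 0 of all genes, while edgeR gave 6 members an unadjusted p below 0.05. These are bulk samples, so fewer cells of a type and less RNA of a gene per cell cannot be told apart in any of these comparisons.

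**Figure D1:**
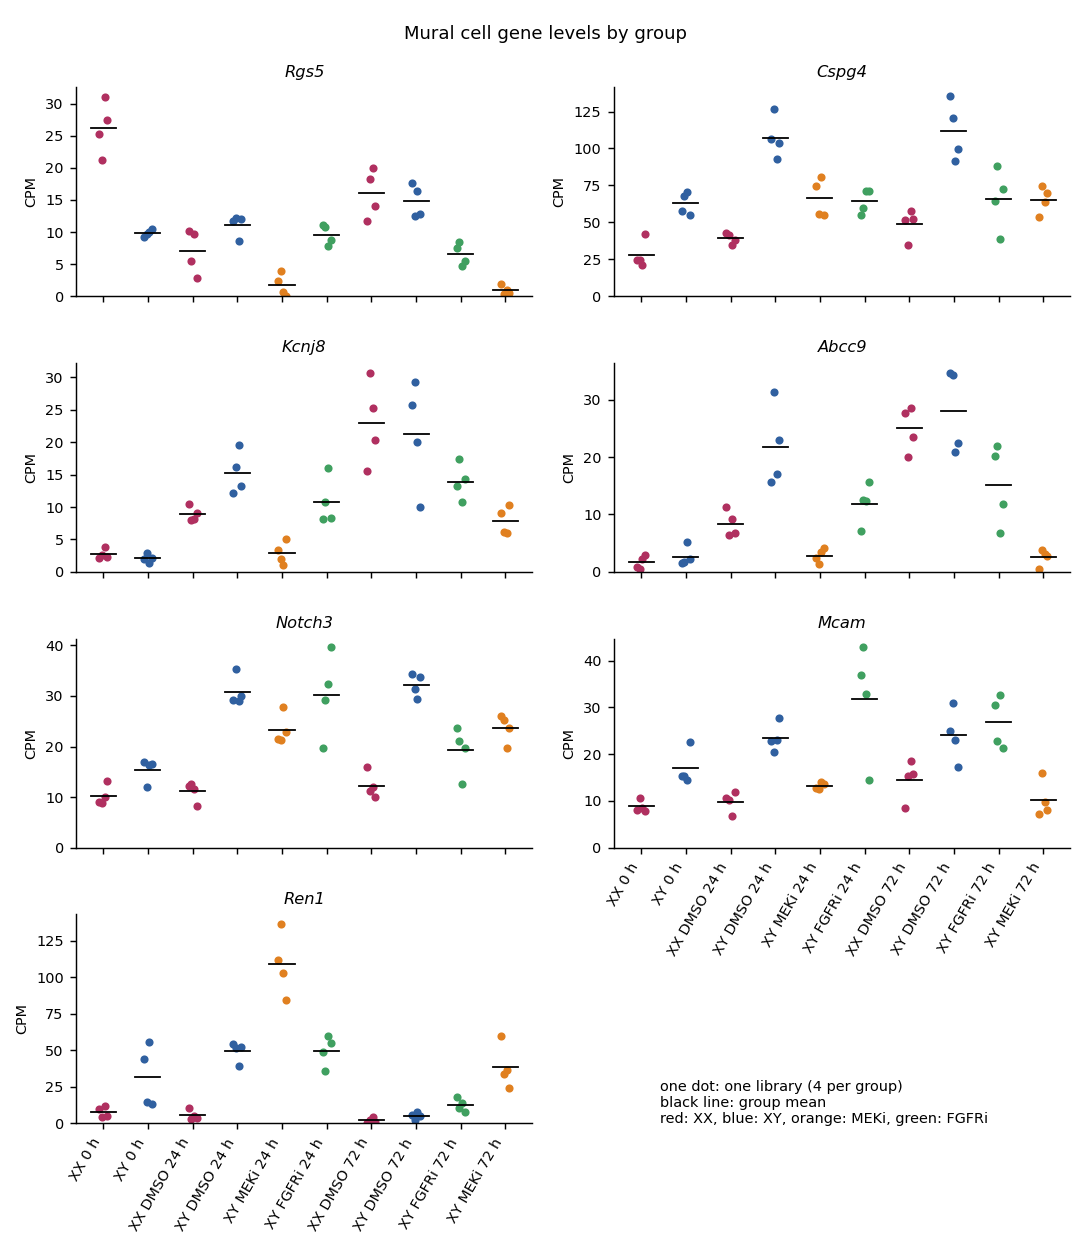
Level of each of the 7 genes (y axis, CPM) in each of the 10 groups (x axis), with 1 dot for each library, 4 in a group, and a black line at the group mean. *Rgs5* was lowest in the MEKi groups at both times, with means of 1.78 CPM at 24 h and 0.94 CPM at 72 h, and *Ren1* was highest in the MEKi group at 24 h, with a mean of 109 CPM.

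Promoter sequence is shown for 3 members that differ in kind and in response, the pericyte marker *Rgs5*, the Notch receptor and *Ren1*, the one member that rose with MEKi. Each is the part of the 250 bases before the RefSeq start site that lies before any annotated exon, read 5′ to 3′ on the gene's own strand from RefSeq for the build GRCm38.p6. *Rgs5* is read from chr1:169655251-169655466 on the plus strand, *Notch3* from chr17:32166920-32167140 on the minus strand and *Ren1* from chr1:133350424-133350509 on the plus strand.
Rgs5: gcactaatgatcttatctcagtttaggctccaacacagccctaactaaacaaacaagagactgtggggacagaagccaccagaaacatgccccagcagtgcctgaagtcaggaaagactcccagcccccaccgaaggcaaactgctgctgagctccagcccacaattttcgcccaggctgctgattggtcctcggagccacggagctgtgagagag
Notch3: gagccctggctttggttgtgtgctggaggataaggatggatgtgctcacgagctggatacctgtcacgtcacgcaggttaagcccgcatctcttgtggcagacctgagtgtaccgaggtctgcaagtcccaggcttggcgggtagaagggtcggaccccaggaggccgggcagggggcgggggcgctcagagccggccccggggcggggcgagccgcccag
Ren1: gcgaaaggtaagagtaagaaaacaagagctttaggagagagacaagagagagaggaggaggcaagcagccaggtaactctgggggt
No letters are in capitals, because none of the 4 motifs searched on both strands lay in these windows. They were the RBPJ motif TGGGAA bound downstream of Notch receptors, the cyclic AMP response element TGACGTCA, the AP-1 motif TGANTCA and the ETS motif CCGGAA. Over the 250 bases before all 32851 RefSeq starts, 21.6% held the RBPJ motif, 1.55% the cyclic AMP response element, 6.75% the AP-1 motif and 12.0% the ETS motif. Among the 7 members, *Abcc9* held an RBPJ motif 221 bases before its start and *Mcam* a cyclic AMP response element 29 bases before its start, and there was no other match. In the windows of *Abcc9* and *Mcam* 0 bases lay before the first annotated exon, so neither is shown. A match is only a run of letters in this window.

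*Rgs5* encodes a regulator of G protein signalling that shortens the signal of G protein-coupled receptors and is among the most widely used pericyte markers. Its gene spans chr1:169483036-169524887 (GRCm39, plus strand), and the nearest protein-coding neighbour, 44158 bases away, is the family member *Rgs4*. Before culture, the 4 XX libraries had 25.2, 21.2, 31.0 and 27.5 CPM and the 4 XY libraries 9.23, 9.67, 10.0 and 10.4 CPM. Every XX library was above every XY library, with a log2 fold change of 1.40 ± 0.29 (SE), or 2.63-fold (FDR 1.63e-04).

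This order had gone after 24 h with DMSO. The XX libraries were at 10.2, 5.45, 9.67 and 2.77 CPM and the XY libraries at 11.8, 12.2, 8.62 and 12.1 CPM, so that the groups overlapped and the XX libraries varied more among themselves. *Rgs5* had fallen 3.76-fold in XX cells (log2 fold change −1.91 ± 0.29, SE, FDR 2.56e-06), while in XY cells the change was 0.16 ± 0.30 (SE, FDR 0.749), smaller than its own error. The difference between these changes was −2.07 ± 0.42 on the log2 scale (SE, FDR 5.46e-04), and it stayed called when any 1 of the 16 libraries was dropped. After 24 h the log2 fold change of XX over XY cells was −0.68 ± 0.30 (SE, FDR 0.0927), which was not called. Without XX replicate F4 at 24 h it was −0.93 (FDR 0.0341). After 72 h with DMSO both groups stood near each other, at 11.7, 18.3, 20.0 and 14.1 CPM in XX and 17.7, 12.4, 16.5 and 12.8 CPM in XY libraries (log2 fold change 0.11 ± 0.28, SE, FDR 0.814, 95% interval −0.45 to 0.68). These XY libraries also entered the contrast that chose the genes.

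MEKi took *Rgs5* to the edge of detection. At 24 h the MEKi libraries had 2.45, 3.99, 0.685 and 0 CPM, which were 5, 6, 2 and 0 counts. The count of 0, in replicate M6, allows up to 1.37 CPM, taking 3 counts as the limit and counting error alone. All 4 MEKi libraries lay below all 4 DMSO libraries, 7.0-fold on the fitted scale (log2 fold change −2.81 ± 0.41, SE, FDR 2.71e-06), and the call held with each library left out in turn. At 72 h the MEKi libraries were at 1.90, 0.382, 0.942 and 0.539 CPM, or 4, 1, 3 and 1 counts, against 12.4 CPM or more in the DMSO libraries. That is a fitted log2 difference of −3.94, which moved to −4.42 without MEKi replicate M2 and which helped to choose the gene.

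In FGFRi cultures at 72 h *Rgs5* was lower than with DMSO but well above its level with MEKi. The FGFRi libraries had 7.49, 8.51, 4.65 and 5.45 CPM. Each was below the lowest DMSO library, and the log2 fold change was −1.21 ± 0.31 (SE, FDR 0.0234), with the same DMSO libraries that entered the contrast that chose the genes. The call was lost without FGFRi replicate M5 (FDR 0.155), without FGFRi replicate M6 (FDR 0.0811) and without DMSO replicate M2 (FDR 0.112). The MEKi libraries at 72 h lay below all FGFRi libraries, a log2 difference of −2.74. After 24 h with FGFRi the libraries had 11.1, 10.7, 7.75 and 8.74 CPM and overlapped the DMSO libraries of the other set. Ordered by mean, *Rgs5* ran from uncultured XX cells, above all others, through the XX and XY groups with DMSO at 72 h, which overlapped, to a run of 5 groups in which neighbours overlapped. These were XY cells with DMSO at 24 h, uncultured XY cells, XY cells with FGFRi at 24 h, XX cells with DMSO at 24 h and XY cells with FGFRi at 72 h. The MEKi groups came last, separated from the group above them. Among the 9 other R4 family members, 4 were tested, and with MEKi at 24 h and with FGFRi at 72 h 0 were DEGs by edgeR, DESeq2 or voom with treat, with 1 and 2 of them at an unadjusted p below 0.05 in edgeR. *Rgs4*, the chromosomal neighbour, had 3.46 CPM with DMSO and 1.71 CPM with MEKi at 24 h (log2 fold change −1.05 ± 0.71, SE, FDR 0.513).

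*Kcnj8* and *Abcc9* encode the pore (Kir6.1) and the sulphonylurea receptor (SUR2) of the ATP-sensitive potassium channel of vascular mural cells. They lie side by side on the minus strand, *Kcnj8* at chr6:142510563-142517830 and *Abcc9* at chr6:142533588-142648571 (GRCm39), with 15757 bases between them. Before culture both genes were near the limit of detection. *Kcnj8* had 2.14, 2.65, 3.87 and 2.26 CPM in XX libraries and 2.05, 2.84, 1.43 and 2.17 CPM in XY libraries. *Abcc9* had 0.854, 0.442, 2.32 and 3.02 CPM in XX and 1.54, 1.71, 5.26 and 2.17 CPM in XY libraries, so the sexes overlapped for both genes.

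Over the first day of culture with DMSO both genes rose together. *Kcnj8* reached 10.5, 7.92, 8.22 and 9.09 CPM in XX libraries and 12.1, 16.2, 19.5 and 13.2 CPM in XY libraries. Its increase was 3.39-fold in XX cells (FDR 6.89e-04) and 7.22-fold in XY cells (FDR 3.07e-08). *Abcc9* reached 11.2, 6.44, 9.19 and 6.72 CPM in XX and 15.7, 31.3, 17.0 and 22.9 CPM in XY libraries, 4.95-fold (FDR 3.87e-04) and 7.91-fold (FDR 3.06e-08) above the uncultured cells. No cultured library overlapped an uncultured one of the same sex. The difference between XX and XY in this change was not called for either gene (FDR 0.324 and 0.69), with 95% intervals on the log2 scale of −2.26 to 0.07 for *Kcnj8* and −2.11 to 0.75 for *Abcc9*.

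With DMSO for 24 h XX cells were below XY cells in both genes, with log2 fold changes of −0.79 ± 0.27 (SE, FDR 0.0241) for *Kcnj8* and −1.39 ± 0.30 (SE, FDR 2.74e-04) for *Abcc9*. The *Kcnj8* call was lost without XX replicate F5 (FDR 0.0751) and without XY replicates M3 (FDR 0.0511) or M4 (FDR 0.111). After 72 h the sexes overlapped. *Kcnj8* had 15.5, 30.7, 25.3 and 20.4 CPM in XX and 25.7, 29.3, 19.9 and 9.99 CPM in XY libraries, and *Abcc9* 27.7, 20.1, 28.6 and 23.5 CPM in XX and 34.7, 34.3, 20.9 and 22.4 CPM in XY libraries. Neither differed by the test (FDR 0.81 and 0.716), with 95% intervals of −0.41 to 0.62 and −0.72 to 0.40 on the log2 scale, and the sign of the small *Kcnj8* difference depended on single libraries (XX replicate F4 or XY replicate M6, −0.05 and −0.13 without them).

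At 24 h with MEKi both subunit genes stood near their uncultured levels. *Kcnj8* had 3.42, 1.99, 1.03 and 5.01 CPM, 5.45-fold below DMSO (log2 fold change −2.45 ± 0.35, SE, FDR 1.16e-06). *Abcc9* had 2.45, 1.33, 3.43 and 4.10 CPM, 7.23-fold below DMSO (log2 fold change −2.85 ± 0.37, SE, FDR 2.30e-07). Every MEKi library lay below every DMSO library for both genes, and both calls held with each library left out. At 72 h with MEKi *Kcnj8* was at 9.01, 6.11, 5.97 and 10.2 CPM and *Abcc9* at 0.474, 3.82, 3.14 and 2.70 CPM, fitted log2 differences from DMSO of −1.48 and −3.40. The *Kcnj8* libraries overlapped those with DMSO, through DMSO replicate M6 at 9.99 CPM, and the *Abcc9* libraries did not.

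In the FGFRi group at 72 h *Kcnj8* had 13.2, 17.4, 10.7 and 14.3 CPM and *Abcc9* 20.2, 21.9, 6.80 and 11.7 CPM, and both overlapped the DMSO libraries. The log2 fold changes were −0.62 ± 0.27 (SE, FDR 0.255) and −0.92 ± 0.29 (SE, FDR 0.0759), and neither was called. *Abcc9* was called when FGFRi replicate M2 (FDR 0.0478) or M4 (FDR 0.0328) was left out. The other pairing of this channel family, *Kcnj11* and *Abcc8*, did not pass the filter, and neither exceeded a group mean of 1.37 CPM. Over the 40 libraries *Abcc9* was the gene most like *Kcnj8* of 12980 compared (Pearson's r of log2 CPM 0.83, Spearman's rho 0.85). The value was 0.85 in one library set and 0.73 in the other. Taken as deviations from the group means it was 0.10, so the likeness lies between groups, which share treatment, set and depth, and hardly between libraries of a group.

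**Figure D2:**
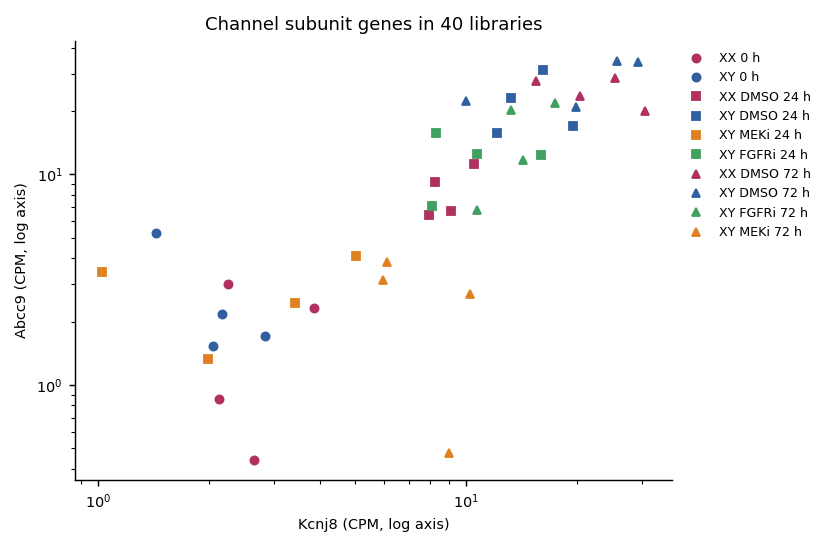
*Kcnj8* (x axis) against *Abcc9* (y axis), both in CPM on log axes, with 1 point for each of the 40 libraries, coloured by group and shaped by time. The uncultured libraries and those with MEKi at 24 h lie at the lower left, and the 72 h DMSO libraries at the upper right, while the 72 h MEKi libraries are low in *Abcc9* with *Kcnj8* between 5.97 and 10.2 CPM.

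*Notch3* spans chr17:32339794-32385893 on the minus strand (GRCm39) and overlaps 1 long noncoding gene on the opposite strand. It was higher in XY than in XX cells in culture. Before culture it had 8.97, 8.84, 10.1 and 13.2 CPM in XX and 16.9, 11.9, 16.3 and 16.5 CPM in XY libraries, which overlapped (log2 fold change −0.58 ± 0.23, SE, FDR 0.0591). That difference was called when XX replicate F5 (FDR 0.0271) or XY replicate M3 (FDR 0.0328) was left out. After 24 h with DMSO the XX libraries had 12.3, 12.6, 11.6 and 8.30 CPM and the XY libraries 29.2, 35.3, 28.9 and 29.9 CPM, 2.73-fold apart (FDR 1.64e-08).

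*Notch3* had risen in XY cells over that day (1.99-fold, FDR 8.00e-05) and had changed by 0.13 ± 0.23 on the log2 scale (SE, FDR 0.792) in XX cells. The difference between these changes was not called (−0.87 ± 0.30, SE, FDR 0.0707). After 72 h with DMSO the XX libraries had 16.0, 11.2, 11.9 and 9.92 CPM and the XY libraries 34.3, 31.3, 29.4 and 33.8 CPM, still 2.62-fold apart with no overlap (FDR 1.75e-07).

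With MEKi at 24 h and 72 h and with FGFRi at 72 h *Notch3* stood below its DMSO level in XY cells, and the drop was called for FGFRi. With MEKi at 24 h the libraries had 21.5, 21.3, 27.7 and 22.8 CPM, each below every DMSO library, but the log2 fold change of −0.39 ± 0.18 (SE) was not called (FDR 0.268). With FGFRi at 72 h the libraries had 23.6, 21.1, 12.5 and 19.7 CPM, again each below every DMSO library, and the log2 fold change of −0.77 ± 0.19 (SE) was called (FDR 0.0159). It was lost without FGFRi replicate M5, the lowest library (FDR 0.181), and without DMSO replicates M2 (FDR 0.0676) or M6 (FDR 0.0506). With MEKi at 72 h the libraries had 26.1, 25.2, 19.8 and 23.7 CPM, a fitted log2 difference from DMSO of −0.45, and with FGFRi at 24 h 19.7, 29.2, 32.3 and 39.8 CPM, a wide range that covered all DMSO libraries.

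Other genes of the Notch pathway moved more than *Notch3* at 24 h with MEKi. Of the other receptors, *Notch1* fell from 63.4 to 22.7 CPM (log2 fold change −1.48 ± 0.16, SE, FDR 2.31e-09) and *Notch4*, a receptor of endothelial cells, from 11.8 to 2.67 CPM (−2.13 ± 0.41, SE, FDR 3.13e-04), while *Notch2* was not a DEG. Of 4 ligands tested 1 fell, the endothelial ligand *Dll4*, named after its values were seen, from 11.3 to 0.892 CPM (FDR 5.28e-06). *Jag1* had 27.6 CPM with DMSO and 20.6 CPM with MEKi (FDR 0.274).

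Of 7 Notch target genes 2 fell with MEKi at 24 h and 0 rose. *Nrarp*, a feedback inhibitor of Notch signalling, went from 11 to 0.933 CPM (FDR 1.57e-06) and *Heyl*, a transcriptional repressor found in vascular smooth muscle, from 138 to 45.5 CPM (FDR 1.07e-08). *Hes1*, the most general target, had 481 and 494 CPM (FDR 0.946). In the FGFRi comparison at 72 h 0 of the other receptors, the ligands and the targets were DEGs by edgeR, DESeq2 or voom with treat, with 1 of each at an unadjusted p below 0.05 in edgeR. Of 8 genes for glycosylation and processing of Notch only *Lfng*, a glycosyltransferase that alters ligand binding, was a DEG in that comparison (log2 fold change 0.95 ± 0.27, SE, FDR 0.0459). Its libraries overlapped between the groups, and 0 of these genes were called by DESeq2 or voom with treat. Between XX and XY cells after 24 h with DMSO, *Jag1* and *Heyl* were lower in XX, with log2 fold changes of −2.03 ± 0.21 (SE, FDR 2.29e-11) and −2.01 ± 0.18 (SE, FDR 3.11e-13), and *Hes1* was higher, at 1.05 ± 0.14 (SE, FDR 2.22e-08).

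*Cspg4* encodes the NG2 proteoglycan of the pericyte surface, and *Mcam* (CD146) an adhesion molecule shared by pericytes and endothelial cells. Both are on the plus strand, *Cspg4* at chr9:56772317-56807187 and *Mcam* at chr9:44045504-44054025 (GRCm39). *Cspg4* was the member with the steadiest difference between the sexes. It had 24.3, 24.7, 20.9 and 42.2 CPM in XX and 57.4, 67.7, 70.8 and 55.2 CPM in XY libraries before culture (log2 fold change −1.12 ± 0.20, SE, FDR 9.00e-06). XX replicate F5 was the highest of its group and still below every XY library. After 24 h with DMSO it had 43.1, 41.1, 34.8 and 38.0 CPM in XX and 106, 127, 93.1 and 103 CPM in XY libraries (−1.44 ± 0.17, SE, FDR 1.06e-09), and after 72 h 51.7, 34.8, 57.8 and 52.2 and 136, 120.3, 91.8 and 99.5 CPM (−1.17 ± 0.17, SE, FDR 3.18e-07). In none of these did the sexes overlap, and none of these calls was lost with a library left out.

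Over the first day *Cspg4* rose 1.71-fold in XY cells (FDR 4.54e-04). In XX cells the log2 fold change was 0.45 ± 0.20 (SE, FDR 0.137), and 0.74 (FDR 0.0145) without XX replicate F5 at 0 h. With both inhibitors *Cspg4* stood close to its uncultured XY level, though the libraries at 72 h belong to the other set. With MEKi at 24 h the libraries had 74.3, 55.8, 80.5 and 55.2 CPM (log2 fold change −0.68 ± 0.17, SE, FDR 0.0083), a call lost without DMSO replicate M3 (FDR 0.055) or MEKi replicate M6 (FDR 0.0608). FGFRi libraries at 72 h had 64.5, 87.9, 38.7 and 72.6 CPM (−0.77 ± 0.17, SE, FDR 0.00615), a call lost without FGFRi replicate M5 (FDR 0.0943) or DMSO replicate M2 (FDR 0.0571). In both comparisons every inhibitor library was below every DMSO library. With MEKi at 72 h they had 53.6, 74.5, 63.7 and 69.6 CPM, a log2 difference from DMSO of −0.78 and from FGFRi of −0.01.

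*Mcam* was lower in XX than in XY cells and lower with MEKi, while with FGFRi at 72 h no change was called. Before culture it had 8.11, 10.6, 8.52 and 7.92 CPM in XX and 15.4, 15.4, 14.3 and 22.6 CPM in XY libraries (log2 fold change −0.95 ± 0.28, SE, FDR 0.00892), a call lost without XY replicate M6, the highest library (FDR 0.0718). After 24 h with DMSO it had 10.5, 10.1, 6.77 and 11.9 CPM in XX and 22.8, 20.4, 23.0 and 27.6 CPM in XY libraries (−1.23 ± 0.25, SE, FDR 7.39e-05). After 72 h, at 8.46, 15.4, 18.5 and 15.7 and 25.0, 30.8, 22.9 and 17.1 CPM, the sexes overlapped, and the call (−0.71 ± 0.25, SE, FDR 0.0265) was lost without XX replicate F11 (FDR 0.135) or XY replicates M2 (FDR 0.0613) or M4 (FDR 0.112).

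In the 24 h MEKi group *Mcam* was at 12.7, 12.6, 14.0 and 13.7 CPM, a narrow range below all DMSO libraries (log2 fold change −0.80 ± 0.25, SE, FDR 0.0455). The FDR was at the threshold, and leaving out any 1 of the 8 libraries, DMSO replicates M2, M3, M4 or M5 or MEKi replicates M1, M2, M4 or M6, moved it to between 0.0533 and 0.117. With FGFRi *Mcam* was at 36.9, 42.9, 32.8 and 14.4 CPM after 24 h and 30.5, 22.7, 32.6 and 21.4 CPM after 72 h, where it did not differ from DMSO by the test (0.16 ± 0.23, SE, FDR 0.834, 95% interval −0.31 to 0.62). With MEKi at 72 h it was at 7.11, 16.1, 9.73 and 8.09 CPM, below all DMSO and all FGFRi libraries of that time, log2 differences of −1.20 and −1.35. Over the first day of culture no change of *Mcam* was called in XY (FDR 0.176) or XX cells (FDR 0.766).

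*Ren1* moved the opposite way from the other members with MEKi. Its gene spans chr1:133278248-133288063 (GRCm39, plus strand). Mice of 129 strains carry a further, nearly identical renin gene that the reference strain lacks, so the counts may sum both copies, and these cannot be told apart. Before culture the XX libraries had 9.40, 4.42, 11.6 and 4.90 CPM and the XY libraries 44.1, 14.8, 55.5 and 13.5 CPM. Every XY library was above every XX library, and the XY libraries fell into a high pair (M2 and M5) and a low pair (M3 and M6). The log2 fold change between the sexes was −2.16 ± 0.38 (SE, FDR 7.66e-06). Summed markers of adrenocortical cells, an embryonic neighbour of the gonad that makes renin, were 12.3, 9.10, 6.21 and 10.4 CPM in XY replicates M2, M3, M5 and M6, with *Cyp21a1* and *Cyp11b1* at 0 in all of them.

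The difference between the sexes after 24 h with DMSO was the largest of any member on the log2 scale. The XX libraries had 10.2, 2.72, 4.84 and 3.56 CPM and the XY libraries 54.2, 51.2, 38.9 and 52.1 CPM, 9.31-fold apart (log2 fold change −3.22 ± 0.35, SE, FDR 6.24e-11). The increase of *Ren1* over that day in XY cells, 0.61 ± 0.28 on the log2 scale (SE), was not called (FDR 0.114), and was 1.01 (FDR 0.0111) without XY replicate M5 at 0 h. After 72 h with DMSO *Ren1* was low in both sexes, at 0.47, 2.36, 4.47 and 1.04 CPM in XX and 5.33, 2.49, 7.98 and 4.76 CPM in XY libraries (log2 fold change −1.10 ± 0.60, SE, FDR 0.176). In XY cells that is below the level at 24 h, but those libraries belong to the other set. The 72 h XY libraries also entered the contrast that chose the genes.

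At 24 h with MEKi all 4 libraries were above all DMSO libraries, at 112, 136, 103 and 84.3 CPM, 2.22-fold higher (log2 fold change 1.15 ± 0.26, SE, FDR 0.00256). This call held with each library left out but was not made by DESeq2 (FDR 0.0737) or by voom with treat (FDR 0.289). With MEKi at 72 h the libraries had 59.7, 34.0, 36.1 and 24.3 CPM, again above every DMSO library, with a fitted log2 difference of 2.89. With FGFRi at 72 h they had 17.8, 10.1, 13.6 and 7.97 CPM, where the lowest library met the highest DMSO library, and the log2 fold change of 1.23 ± 0.44 (SE) was not called (FDR 0.134). It was called only without the filter on low counts (FDR 0.00113) and with the replicate number as a block (FDR 0.0244). MEKi libraries at 72 h were above all FGFRi libraries, by 1.66 on the log2 scale. With FGFRi at 24 h the libraries had 49.0, 35.7, 59.7 and 54.6 CPM, on both sides of the DMSO libraries. In the order of group means only the 24 h MEKi group was separated from the next, and every other neighbour overlapped.

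No gene linked to renin was called higher with *Ren1*. With MEKi at 24 h, 0 of 6 other renin-angiotensin genes tested were DEGs by edgeR, DESeq2 or voom with treat, and 1 of them had an unadjusted p below 0.05 in edgeR. Of 9 genes tested that mark or drive renin cells, 0 rose and 1 fell. It was *Gja5*, the gap junction protein connexin 40 of arterial endothelium and renin cells, which went from 25.3 to 0.446 CPM (log2 fold change −5.99 ± 0.55, SE, FDR 2.74e-11). With FGFRi at 72 h 0 genes of either list were DEGs by any of these tools, and 2 of the first list and 1 of the second had an unadjusted p below 0.05 in edgeR. The genes whose log2 CPM was most like that of *Ren1* over the 40 libraries were *Basp1* (Pearson's r 0.87), *Erc2* (0.82), an unnamed gene, the tropomyosin gene *Tpm1* (0.81) and the cardiac troponin gene *Tnnt2* (0.79).

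**Figure D3:**
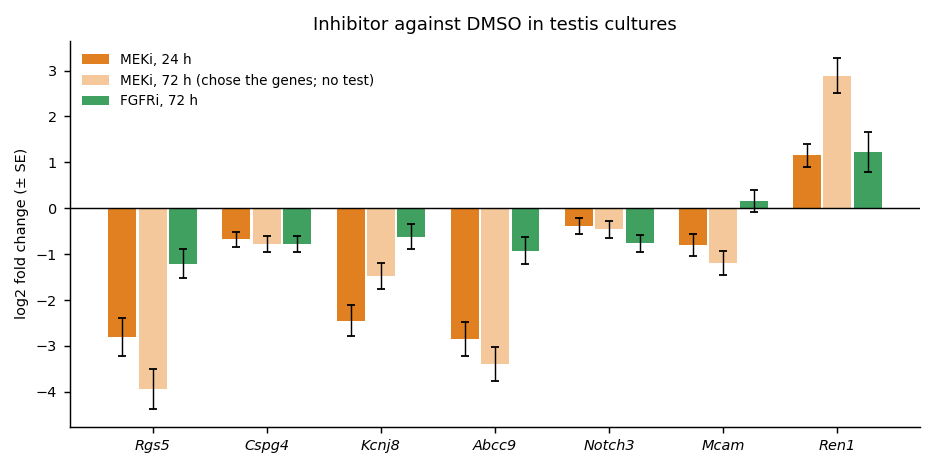
Log2 fold change of each of the 7 genes (x axis) in XY somatic cells with an inhibitor over DMSO (y axis), with MEKi at 24 h in dark orange, MEKi at 72 h, which chose the genes, in pale orange and FGFRi at 72 h in green. Bars are fitted values and error bars standard errors, and *Ren1* is the one gene with all bars above 0, at 1.15, 2.89 and 1.23.

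In the contrast that chose the genes, MEKi with DMSO at 72 h, 1 member was past 1.5-fold higher and 5 were past 1.5-fold lower, where 16.7% of all genes were past that fold in either direction. Nearest to this fold were *Cspg4*, which passed it at −0.78 on the log2 scale, and *Notch3*, which fell short of it at −0.45. The median log2 difference of the members was −1.20. It was −0.80 with MEKi at 24 h and −0.77 with FGFRi at 72 h, while the median of all genes tested was −0.0059 and −0.0004 in those comparisons. FGFRi and MEKi at 72 h share their DMSO libraries, which are also the XY libraries of the comparison with XX cells at 72 h.

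The list of 18 other pericyte genes, of which 13 were tested, moved in the same direction as most members. With MEKi at 24 h, 6 were DEGs and all fell, while DESeq2 called 5 of the 13 and voom with treat 3. *Gja4*, a gap junction gene of arterial endothelium and mural cells, fell most, from 40.1 to 2.59 CPM (FDR 6.00e-11). *Pdgfrb* fell from 175 to 65.6 CPM (FDR 3.43e-08) and the forkhead gene *Foxs1* from 36.5 to 19.1 CPM (FDR 0.00739). *Des*, the muscle intermediate filament desmin, was level at 15.8 and 15.0 CPM (FDR 0.945). At 72 h with FGFRi *Pdgfrb* alone of the 13 fell, from 148 to 83.5 CPM (FDR 0.00277), and voom with treat called 0 of the 13.

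Signals by which vessels recruit and keep pericytes also fell with MEKi at 24 h, with 6 of 10 genes DEGs, all lower. Besides *Pdgfrb* they included *Angpt1*, which stabilises vessels through the receptor Tie2 (log2 fold change −1.38 ± 0.41, SE, FDR 0.0408), *Tgfb1* (−1.25 ± 0.35, SE, FDR 0.0215) and its endothelial co-receptor *Eng* (−1.09 ± 0.30, SE, FDR 0.0252). *Pdgfb*, the ligand of *Pdgfrb*, had 9.76 CPM with DMSO and 4.67 CPM with MEKi (FDR 0.0589). Of these 10 genes DESeq2 called 6 and voom with treat 1.

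Endothelial markers moved with the members at 24 h. All 12 fell with MEKi, and their summed level was 72.5 to 89.7 CPM with MEKi against 276 to 433 CPM with DMSO, with none of the 12 at 0 in a whole group. *Cdh5*, the cadherin of endothelial junctions, went from 51.0 to 8.20 CPM (FDR 3.05e-09). Of the 12 markers DESeq2 called 12 and voom with treat 10. At 72 h the sums were 119 to 136 CPM with MEKi, 126 to 204 CPM with FGFRi and 136 to 231 CPM with DMSO, where 1 MEKi library overlapped DMSO. Single markers were further apart than the sums: 10 of 12 were past 1.5-fold lower with MEKi than with DMSO (median log2 difference −1.90), and 9 lower and 1 higher than with FGFRi (median −1.52), where 15.8% of all genes were past that fold. With FGFRi against DMSO 0 of the 12 were DEGs by edgeR, DESeq2 or voom with treat, with 2 at an unadjusted p below 0.05 in edgeR. The part of the endothelial markers in the members' differences was not tested.

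Smooth muscle markers did not follow the members that fell. Their summed level was 815 to 902 CPM with DMSO and 819 to 916 CPM with MEKi at 24 h, where 1 of 10, the integrin gene *Itga8*, fell. At 72 h the sums were 810.3 to 994 CPM with DMSO, 997 to 1454 CPM with FGFRi and 1408 to 1601 CPM with MEKi. With FGFRi 4 of 10 rose, among them *Tagln* (log2 fold change 1.08 ± 0.18, SE, FDR 1.67e-04), *Myh11* (0.86 ± 0.19, SE, FDR 0.00536) and *Acta2* (0.71 ± 0.12, SE, FDR 2.58e-04), all proteins of the contractile filaments, and *Itga8* fell (−1.76 ± 0.31, SE, FDR 3.51e-04). *Rgs5*, *Cspg4* and *Notch3* fell in the same libraries. Of the 10 smooth muscle markers DESeq2 called 5 with FGFRi and voom with treat 0, as it did of all genes.

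Markers of other cell types moved as well. Germ cell markers, which the sort should remove, summed to 114 to 226 CPM with MEKi and 47.5 to 76.7 CPM with DMSO at 24 h. Macrophage markers summed to 6.80 to 17.0 CPM with FGFRi, 12.9 to 19.9 CPM with MEKi and 28.6 to 77.5 CPM with DMSO at 72 h, and all 4 that were tested fell with FGFRi. DESeq2 called these 4 with FGFRi and voom with treat 0. Markers of the mesonephros and its ducts summed to 33.8 to 43.7 CPM with DMSO and 40.1 to 53.8 CPM with MEKi at 24 h. The part of these markers in the results was not tested.

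Markers of steroid-producing cells also differed between groups in which *Ren1* differed, but not always in the same direction. Foetal Leydig cell markers, from the androgen-producing cells of the testis interstitium, summed to 881 to 1358 CPM with MEKi, 575 to 1027 CPM with FGFRi and 429 to 662 CPM with DMSO at 72 h. At that time 4 of 5 were past 1.5-fold higher with MEKi than with DMSO (median log2 difference 1.08). Of all genes 16.7% were past that fold in either direction. At 24 h, where *Ren1* was also higher with MEKi, the Leydig markers summed to 551 to 719 CPM with MEKi and 673 to 991 CPM with DMSO, and 1 of 5 fell and 0 rose. Adrenocortical markers at 72 h summed to 11.9 to 22.8 CPM with MEKi and, without overlap, 4.86 to 7.16 CPM with FGFRi. Both that were tested were past 1.5-fold higher with MEKi than with FGFRi (median log2 difference 1.60), where 15.8% of all genes were past that fold. The DMSO libraries of that time overlapped both groups, with the highest at 27.9 CPM. Against DMSO, 1 of the 2 markers tested was past 1.5-fold higher with MEKi and 1 lower (median log2 difference 0.17). At 24 h these sums were lower with MEKi, at 4.65 to 9.29 CPM, than with DMSO, at 11.1 to 17.5 CPM. The part of either cell type in the differences of *Ren1* was not tested.

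**Figure D4:**
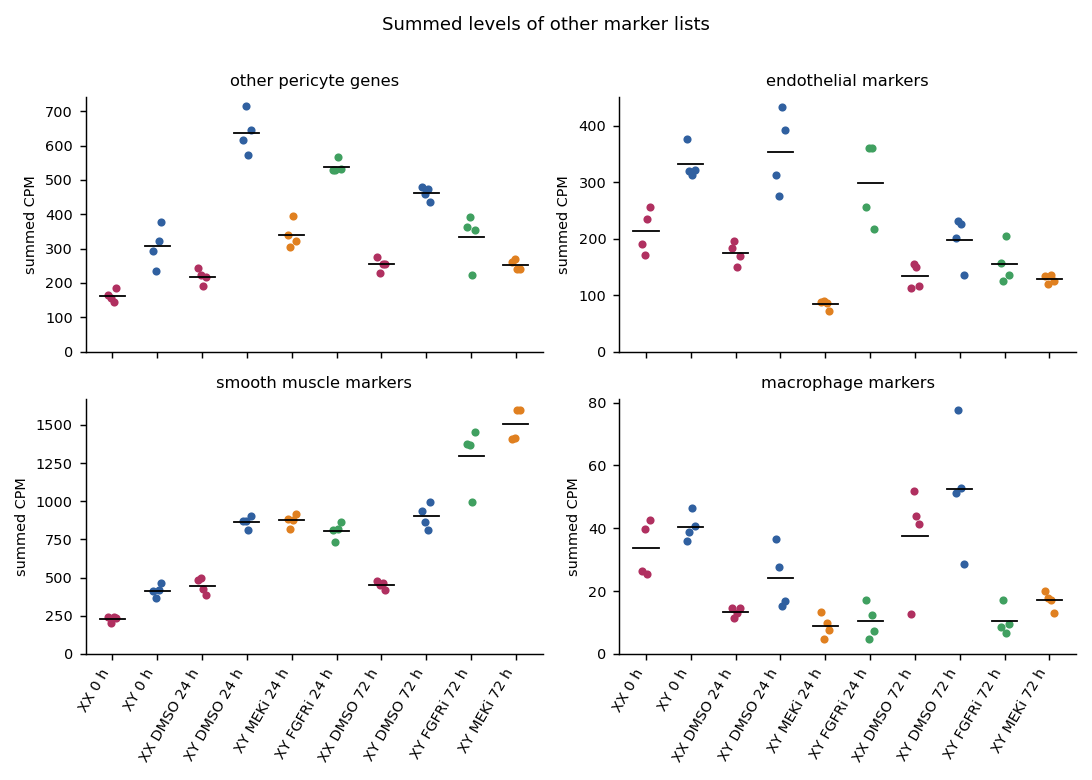
Summed level (y axis, CPM) of 17 other pericyte genes found in the count table, 12 endothelial, 10 smooth muscle and 5 macrophage markers in each of the 10 groups (x axis), with 1 dot for each library and a black line at the group mean. Endothelial sums were lowest with MEKi at 24 h, between 72.5 and 89.7 CPM, and smooth muscle sums highest with MEKi at 72 h, between 1408 and 1601 CPM.

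Between XX and XY cells after 24 h with DMSO most markers of these lists were lower in XX, where 19.6% of all genes were DEGs. Of 12 endothelial markers 11 were lower, of 13 other pericyte genes 9 were lower and 1 higher (*Anpep*, log2 fold change 2.63 ± 0.40, SE, FDR 3.92e-07), and of 10 smooth muscle markers 8 were lower and 1 higher (*Myh11*, 2.21 ± 0.19, SE, FDR 3.99e-14). The endothelial sums were 150.4 to 196 CPM in XX and 276 to 433 CPM in XY libraries. Before culture 7 of 12 endothelial markers were lower in XX and 0 higher, where 17.3% of all genes were DEGs, while *Rgs5* was higher in XX. After 72 h 2 of 12 endothelial markers were lower, which is no more than the 20.3% of all genes that were DEGs. Markers of interstitial progenitors, the stromal cells between the testis cords, were also lower in XX at 24 h (6 of 7, sums of 634 to 866 against 1817 to 2124 CPM), as were 3 of 5 foetal Leydig markers (188 to 244 against 673 to 991 CPM), both adrenocortical markers tested (1.45 to 6.33 against 11.1 to 17.5 CPM) and 4 of 5 erythroid markers (769.6 to 1797 against 2115 to 5557 CPM). The interstitial progenitor markers were lower in XX before culture as well (5 of 7) and after 72 h (6 of 7). The part of these cell types in the members' differences between the sexes was not tested.

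**Figure D5:**
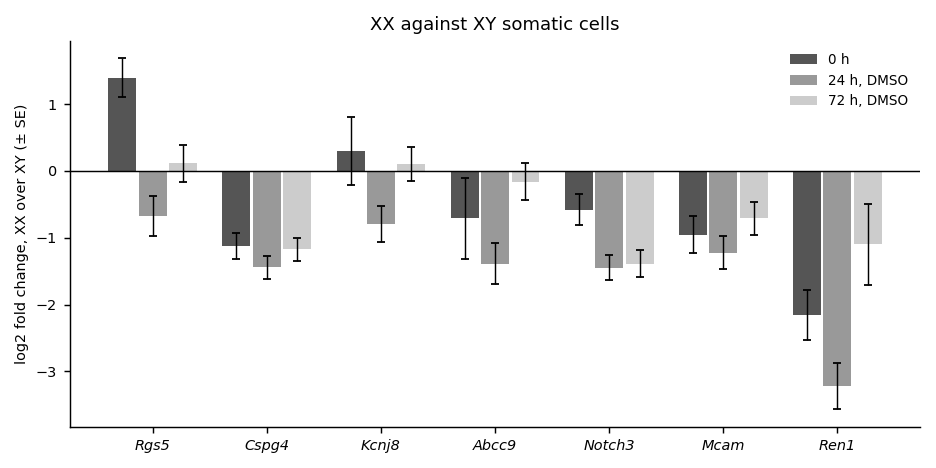
Log2 fold change of each of the 7 genes (x axis) in XX over XY somatic cells (y axis), before culture in dark grey and after 24 h and 72 h with DMSO in lighter greys, as fitted values with standard errors. *Cspg4*, *Abcc9*, *Notch3*, *Mcam* and *Ren1* lie below 0 at all times, and *Rgs5* changes from 1.40 before culture to −0.68 at 24 h.

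Over the 40 libraries the members did not form one block. *Cspg4* and *Notch3* were alike (Pearson's r of log2 CPM 0.84, Spearman's rho 0.84, and 0.53 for deviations from group means), as were *Kcnj8* and *Abcc9*, while *Rgs5* and *Ren1* ran against each other (−0.49, rho −0.52). Within groups the sign of that last value turned (0.44). The genes were chosen knowing that *Rgs5* was lower and *Ren1* higher with MEKi at 72 h, and those libraries are among the 40, so a negative value is in part set by the choice. These are descriptions across libraries that share treatment, set and depth. The genes most like *Rgs5* were *Espn* (r 0.76), *Dennd2a* (0.75), the transcriptional regulator *Lmo2* of blood and endothelium (0.73), *Afap1l1* (0.72) and the endothelial receptor *Cd93* (0.71).

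The genes most like *Abcc9* were *Pla2g7* (r 0.83), *Kcnj8*, *Notch1* (0.81), *Pdgfrb* (0.80) and *Cadm1* (0.78), and after *Abcc9* those most like *Kcnj8* were the integrin gene *Itga1* (0.81), the matrix gene *Postn* (0.79), *Acsl4* (0.78) and *Cyth3* (0.76). *Notch3* was most like the mechanosensitive channel gene *Piezo1* (r 0.89), *Msc* (0.89), *Tbx2* (0.89), the signalling ligand *Wnt5a* (0.89) and *Tshz3* (0.88). *Cspg4* was most like *Cdh11* (r 0.90), *Vcan* (0.88), *Slc8a1* (0.88), *Col11a1* (0.88) and *Mmp2* (0.87), several of them genes of the extracellular matrix and its turnover. *Mcam* was most like the intermediate filament gene *Nes* (r 0.81), *Enc1* (0.79), *Uaca* (0.77), *Spata13* (0.76) and *Slco3a1* (0.76).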

How the data were processed

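GFP-negative somatic cells were sorted from uncultured and cultured E12.5 gonads, and their RNA was measured by 3′ RNA-seq with unique molecular identifiers in 40 libraries. The authors deposited gene counts made with scPipe and Rsubread on GENCODE GRCm39, and these counts are whole numbers that were neither normalised nor pooled. The methods for library construction were written for germ cells and are taken to hold for the somatic libraries, and the annotation release and tool versions were not given in the sources used here. Libraries were assigned to groups by the deposited list of library labels. MEKi replicate M2 at 24 h is in that list and in the count table but not in the sample description. It was kept, and the values without it are among those with a library left out.

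Names and positions were taken from GENCODE M39, which holds 40391 of the 42422 identifiers. Genes were filtered with filterByExpr by group, scaled by TMM and tested with edgeR 4.0.16 in R 4.3.3, in 1 quasi-likelihood model with 10 group means over all libraries. Standard errors come from the estimate and its F statistic. Correlations used log2 CPM with a prior count of 2, over genes with a mean of at least 5 CPM. Within groups, 60 pairs of libraries differed by more than sampling noise (chi-square per degree of freedom 1.92 to 7.69), so none was a copy. P-values measure the spread between libraries, each made from pooled gonads by the paper's methods. Limits from counts cover counting error only. Intervals on log2 fold changes rest on the standard errors of the model, and so include the spread between libraries. The model was tested on simulated data.

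The members, the 23 other gene lists and the tests were chosen with earlier results of these data known. Named genes are the members, at most 4 DEGs per list and comparison, those with the largest change among genes averaging 5 CPM or more, genes named in list titles or chosen as shown in the text, and the 5 genes most like each member. The alternatives were RLE scaling, total counts, no filter, at least 1 CPM in 4 libraries, a run of DESeq2 1.42.0, voom with quality weights and treat in limma 3.58.1, only the libraries compared, a block for the replicate number, and omission of 1 library at a time.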

Additional observations from a re-analysis of the deposited data

Results flagged for a closer look

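In 5 of 70 groups of 4 libraries (10 groups for each of the 7 genes) 1 library stood apart from the other 3 by Dixon's test, which chance alone does in about 1 of 20 groups. *Rgs5* had 8.62 CPM in DMSO replicate M4 of the 24 h XY group, below the other 3. *Abcc9* had 5.26 CPM in replicate M5 of uncultured XY cells, above the others. *Notch3* had 11.9 CPM in replicate M3 of uncultured XY cells, below the others, and 35.3 CPM in DMSO replicate M3 of the 24 h XY group, above the others. *Mcam* had 22.6 CPM in replicate M6 of uncultured XY cells, above the others, and without it the difference between XX and XY cells was no longer called.

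The change of *Rgs5* over the first day of culture differed between XX and XY cells, by −2.07 on the log2 scale (FDR 5.46e-04 for the interaction in edgeR), and no other member's did.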

How the results depend on the processing

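Over the members' differences that were tested, RLE scaling, total counts and a filter of 1 CPM in 4 libraries changed 0 of 56 calls or signs each, and fits with only the libraries compared changed 0 of 53. DESeq2 lost 3 calls, and left the members' counts within 1.5 times of edgeR's. Without a filter 4 calls were gained, and the count with FGFRi at 72 h rose from 3 to 5 (361 of all genes against 273), through *Abcc9*, lower, and *Ren1*, higher.

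Voom with treat, which tests against 1.5-fold, lost 18 of 56. It called 3 members with MEKi at 24 h, 0 with FGFRi at 72 h, 1 and 3 between XX and XY cells before culture and at 24 h, 2 and 1 over the first day in XY and XX cells, and 0 in the difference between these changes. Over all genes it called 88 with MEKi at 24 h (495 in edgeR), 0 with FGFRi at 72 h (273), 936, 1156 and 1087 between XX and XY cells at 0, 24 and 72 h (2622, 2961 and 3067), 421 and 214 over the first day in XY and XX cells (2178 and 1169) and 119 in the interaction (938).

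With a library left out in turn, the members called were 4 to 5 with MEKi at 24 h (359 to 581 of all genes). With FGFRi at 72 h they were 0 to 4 (90 to 367 of all genes). Between XX and XY cells they were 3 to 5 at 0 h (2515 to 2584 of all genes), 5 to 7 at 24 h (2734 to 2912) and 2 to 3 at 72 h (2791 to 3049). Over the first day they were 4 to 5 in XY cells (1798 to 2289 of all genes) and 3 to 4 in XX cells (953 to 1312). For the interaction 1 member was called in each case (779 to 955 of all genes). The median log2 difference of the members ran from −1.38 to −1.06 for MEKi against DMSO at 72 h, from −1.01 to −0.73 for MEKi against FGFRi at 72 h, and from −0.35 to −0.13 for FGFRi at 24 h.

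Replicate numbers were used as a block where at least 2 were shared, which XX and XY cells at 72 h did not allow. The block gave 4 members with MEKi at 24 h, 5 with FGFRi at 72 h (331 of all genes against 273) and 1 over the first day in XX cells. It gave a median of −1.63 for MEKi against DMSO at 72 h (−1.20 without it). Over all genes it called 308 with MEKi at 24 h, 1938 between XX and XY cells at 24 h, 1353 and 587 over the first day in XY and XX cells, and 264 in the interaction. Same-numbered libraries deviated from their group means with correlations of −0.152 to 0.12. With 3 or more pairs not every library matched its own number best, and for FGFRi against DMSO at 72 h 2 of 4 did. With so few pairs this cannot settle whether libraries of the same number belong together, and the main fit used no block.

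Small differences changed sign. *Kcnj8* between XX and XY cells at 72 h was −0.05 without XX replicate F4 and −0.13 without XY replicate M6 (up to 0.28 without others), and *Rgs5* −0.033 without XX replicate F7 (up to 0.24). *Cspg4* between MEKi and FGFRi at 72 h was 0.17, 0.04 and 0.07 without FGFRi replicates M4 or M6 or MEKi replicate M2 (down to −0.21). With FGFRi at 24 h *Ren1* was −0.014 with total counts and −0.080, −0.06 and −0.01 without DMSO replicate M4 or FGFRi replicates M4 or M5 (up to 0.16), and *Notch3* was 0.10 with the block and 0.05 and 0.13 without DMSO replicate M3 or FGFRi replicate M1 (down to −0.19). The causes were not tested. Depth limits *Rgs5* with MEKi most, where libraries had 0 to 6 counts.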
